A study of Rattus norvegicus with 10 samples.

Results

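Cga, Tshb and Nmu are 3 hormone and peptide genes that were read in the hypothalamus of 10 male Wistar rats on 1 Affymetrix rat genome array each. Every probe set that the array annotation assigns to Cga, Tshb or Nmu alone was taken, which gave 3 probe sets, 1 per gene, of 31042 probe sets in all and 3 of 14217 genes. The genes were chosen by their values in these same rats: all of them were called higher on chow and were high in some of the same rats. Their differences between the diets and their joint pattern are therefore given as a description, with no test.

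The C group (5 rats) ate solid chow and the P group (5 rats) the powdered feed for 8 days, and both groups had first been fed powder during a short acclimatization. All rats had free access to feed and water and were 4 weeks old at sampling, and the labels name no genetic change, drug or operation. The hypothalamus of each rat was taken whole, with no separation of cell types, so a lower signal from fewer cells of a type and from less RNA per cell cannot be told apart. The rats are called Chow 1 to Chow 5 and Powder 1 to Powder 5. Pairwise correlations between the arrays lay between 0.997 and 0.999, and 0 pairs of arrays were identical. Defining peptide genes of hypothalamic neurons were read in every rat, with 8 of the 9 measured genes of that list varying between rats. The mean log2 level of the 9 was 9.71 to 9.94 in C rats and 9.91 to 10.13 in P rats. Pomc, the remaining gene, read 6.75 in every rat, and Agrp had no probe set naming it alone.

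Cga encodes the alpha subunit that thyrotropin, luteinizing hormone and follicle-stimulating hormone have in common, and Tshb encodes the beta subunit that makes the pair thyrotropin. Thyrotropin is made in the anterior pituitary, where it drives the thyroid gland, and also in the pars tuberalis, a thin sheet of pituitary cells that wraps the stalk and the median eminence directly below the hypothalamus. There its production follows melatonin and day length, and it acts on receptors of tanycytes, the glial cells lining the third ventricle. Nmu encodes neuromedin U, a peptide that reduces feeding and acts in the brain through the receptor encoded by Nmur2. In the rat, Nmu transcripts are known from the pars tuberalis as well as from hypothalamic neurons.

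The promoters are shown because the 3 genes were high in the same rats. Each window, from RefSeq on build GRCr8, runs from 250 bases before to 50 bases after the start of the gene, and all 3 genes matched. It is printed 5′ to 3′ along the gene's own strand. Capitals mark matches, on either strand, to any of 7 motifs that are spelled out after the sequences.
Cga, chr5:54283090-54283389, plus strand: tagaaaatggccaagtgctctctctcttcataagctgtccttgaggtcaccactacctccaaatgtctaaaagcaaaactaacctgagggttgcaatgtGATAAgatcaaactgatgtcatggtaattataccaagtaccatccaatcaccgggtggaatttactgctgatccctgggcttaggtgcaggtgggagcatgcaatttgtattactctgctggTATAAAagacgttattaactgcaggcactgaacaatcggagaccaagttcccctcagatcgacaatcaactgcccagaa
Tshb, chr2:192918005-192918304, minus strand: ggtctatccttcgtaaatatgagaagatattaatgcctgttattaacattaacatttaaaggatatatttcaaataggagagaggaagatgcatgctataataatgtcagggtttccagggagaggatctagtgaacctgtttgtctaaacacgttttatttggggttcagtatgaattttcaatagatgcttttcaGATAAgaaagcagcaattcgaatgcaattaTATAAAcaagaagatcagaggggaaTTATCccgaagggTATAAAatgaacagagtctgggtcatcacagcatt
Nmu, chr14:32198693-32198992, plus strand: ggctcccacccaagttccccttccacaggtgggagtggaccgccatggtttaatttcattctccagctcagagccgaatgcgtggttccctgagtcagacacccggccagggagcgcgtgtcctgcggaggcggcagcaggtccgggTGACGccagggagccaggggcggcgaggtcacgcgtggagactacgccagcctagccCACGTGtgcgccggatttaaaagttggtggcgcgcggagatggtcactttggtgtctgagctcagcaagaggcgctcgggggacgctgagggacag

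The hormone subunit genes held the same kinds of matches and Nmu held others. Cga had 1 TATA box, 29 bases before the start site. Tshb had 2 matches to it, 23 bases before and 15 bases after its start site, while the Nmu window held 0. The TATA box, searched as TATAAA, stands in 14.2% of the 33469 promoter windows of this length. The GATA motif, searched as GATAA, had 1 match in Cga, 2 in Tshb and 0 in Nmu, and stands in 26.5% of all windows. Of the 3 windows only that of Nmu held an E-box, searched as CACGTG, 46 bases before the start site (6.42% of all windows). It also held the short form of the cAMP response element, searched as TGACG, 103 bases before it (21.2% of all windows). The full element, TGACGTCA, which contains the short form, had 0 matches in all 3 windows and stands in 1.83% of all windows. The D-box, searched as TTATGNAA, had 0 matches and stands in 3.66% of all windows. The Pitx motif, searched as TAATCC, had 0 matches and stands in 7.17% of all windows. No matches overlapped in the 3 windows. In base composition the windows of Cga and Tshb had 44.3% and 35.0% G and C, and that of Nmu 64.7%, beside a median of 51.7% over all windows. These matches describe letters only.

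Cga, the shared alpha subunit, was high in 2 rats and low in 8. In the C group its log2 signal was 6.38 in Chow 1, 6.47 in Chow 2, 6.39 in Chow 3, 9.85 in Chow 4 and 8.48 in Chow 5. In the P group it was 6.46 in Powder 1, 6.55 in Powder 2, 6.64 in Powder 3, 6.37 in Powder 4 and 6.36 in Powder 5. Chow 4 and Chow 5 stood above every P rat, and the remaining 3 C rats lay inside the range of the P group. Relative to the P mean, Chow 4 was higher by 3.38 (10.4-fold) and Chow 5 by 2.0 (4.01-fold), where the SD of the P group was 0.12. No other of the 31042 probe sets had a larger SD over the 10 rats than Cga (1.19). The C group averaged 7.51 ± 1.59 and the P group 6.47 ± 0.12 (SD, n = 5 each), a difference of 1.04 with a standard error (SE) of 0.69. The medians of the groups, 6.47 in C rats and 6.46 in P rats, differed by 0.0035.

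Tshb, the subunit that gives thyrotropin its identity, was highest in the same rats and in the same order. It read 6.25 in Chow 1, 6.16 in Chow 2, 6.14 in Chow 3, 7.68 in Chow 4 and 6.73 in Chow 5. In the P group it read 6.05 in Powder 1, 6.08 in Powder 2, 6.06 in Powder 3, 6.04 in Powder 4 and 6.01 in Powder 5. Chow 4 was higher than the P mean by 1.63 (3.09-fold) and Chow 5 by 0.68 (1.60-fold). Unlike those of Cga, the Tshb groups did not overlap, since Chow 1, Chow 2 and Chow 3 were also above every P rat. Their distances from the P mean were 0.20, 0.11 and 0.09, with a P group SD of 0.025. The 8 rats other than Chow 4 and Chow 5 read 6.01 to 6.25, in a table whose lowest value is 5.23. The mean of Tshb was not above the median of all probe sets. Whether distances this small at so low a level reflect the gene was not tested. The C group averaged 6.59 ± 0.65 and the P group 6.05 ± 0.025 (SD, n = 5 each), a difference of 0.54 (SE 0.28), and the medians were 6.25 in C rats and 6.05 in P rats. Over the whole array, 47 of 31042 probe sets (0.151%) had every C rat above every P rat. Nothing is read from this share, because Tshb was chosen with its separation known.

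Nmu, the neuromedin U gene, followed the same order in the upper 2 rats with smaller distances. It read 6.60 in Chow 1, 6.25 in Chow 2, 6.50 in Chow 3, 7.45 in Chow 4 and 6.82 in Chow 5. In the P group it read 6.50 in Powder 1, 6.43 in Powder 2, 6.59 in Powder 3, 6.71 in Powder 4 and 6.37 in Powder 5. Chow 4 stood 0.93 above the P mean (1.90-fold). Chow 5, 0.30 above it (1.23-fold), was only a little higher than Powder 4, and Chow 2 was the lowest rat of all, so the groups overlapped. The C group averaged 6.72 ± 0.45 and the P group 6.52 ± 0.14 (SD, n = 5 each), a difference of 0.20 (SE 0.20), and the medians were 6.60 in C rats and 6.50 in P rats.

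**Figure D1:**
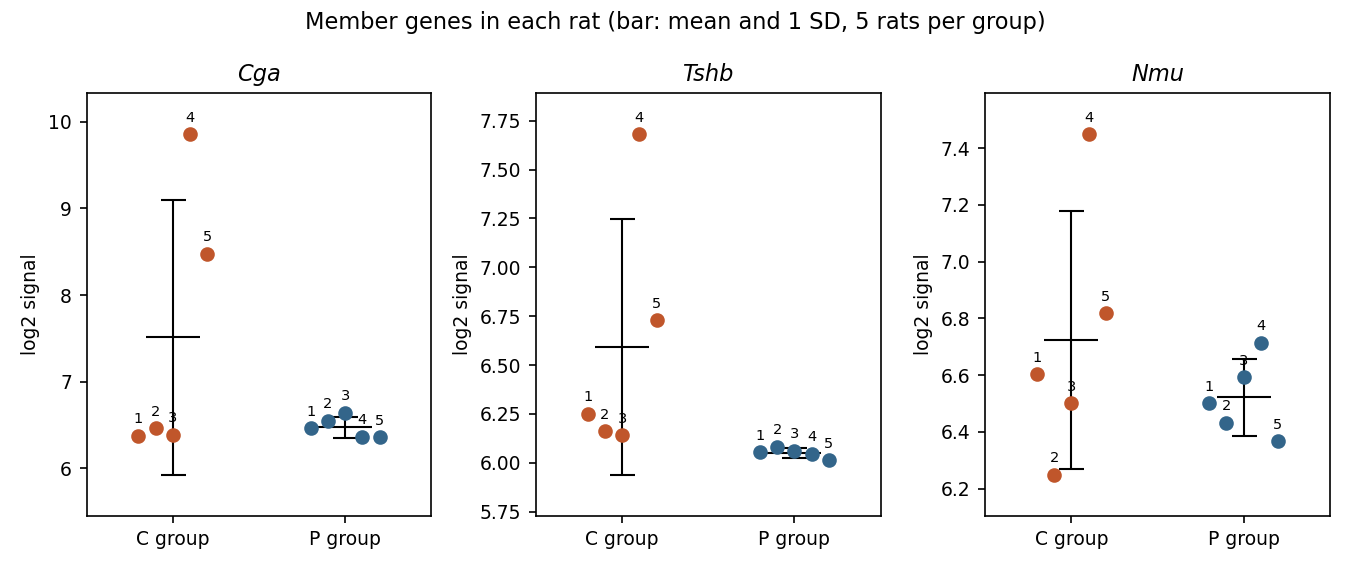
Log2 signal of Cga, Tshb and Nmu in each rat (vertical axes, a separate scale for each gene), with the C group left of the P group and each point numbered by its rat. Bars are group means and 1 SD (5 rats per group). Chow 4 and Chow 5 are the highest rats of all 3 genes, with Cga at 9.85 and 8.48 against at most 6.64 in the P group.

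The comparison between the diets asks whether solid feed, which needs chewing, changed the hypothalamic transcriptome. By rank products, the method of the study, at a false discovery rate (FDR) below 0.05, 292 of 31042 probe sets (0.941%) were called higher in the C group and 254 (0.818%) lower, and all 3 genes were among those called higher. For Cga and Tshb no permuted product was as small as theirs, and Nmu had an FDR of 0.02. As this call is what chose the genes, nothing is read from it. By limma, a linear model with moderated variances, 0 probe sets (0%) had a Benjamini-Hochberg adjusted p below 0.05, with 1100 at an unadjusted p below 0.05.

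The differences of Cga and Nmu rested on Chow 4 and Chow 5. Without Chow 4, Cga differed between the diets by 0.45, Tshb by 0.27 and Nmu by 0.021, and without Chow 5 by 0.80, 0.51 and 0.18. The Nmu difference was 0.32 without Chow 2. With both Chow 4 and Chow 5 left out, a choice made after seeing the data, the C minus P difference was -0.065 for Cga, 0.13 for Tshb and -0.071 for Nmu, and rank products called 0 of the 3 (FDR 1.19, 0.0751 and 1.26). Leaving out the highest rats of 1 group lowers its mean by construction. Rank products called Cga and Tshb in 10 of 10 cases with 1 rat left out and Nmu in 7 of 10. These counts repeat the call that chose the genes, on subsets of the same arrays, so nothing is read from them. Nmu was not called without Chow 1 (FDR 0.05), without Chow 4 (FDR 0.295) or without Chow 5 (FDR 0.111).

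The 3 genes were high together in the upper 2 rats, and in the other 8 their correlations lay between -0.18 and 0.43, by pair and measure. Over the 10 rats the Pearson r of log2 signals was 0.97 for Cga with Tshb, 0.89 for Cga with Nmu and 0.91 for Tshb with Nmu, and it was 0.97, 0.89 and 0.93 after the group means were removed. Spearman's rho, which takes only the order of the rats, was lower, at 0.67, 0.41 and 0.45. Chow 4 and Chow 5 lay farthest from the median in both Cga and Tshb. Without them, r over the remaining 8 rats was -0.18 for Cga with Tshb, -0.059 for Cga with Nmu and -0.028 for Tshb with Nmu, and rho was 0.36, -0.17 and -0.071. With the group means also removed, r in these 8 rats was 0.28, -0.16 and 0.43. The relation over all rats thus rested on these rats. In the 8 rats the log2 signal spanned 0.28 for Cga, 0.24 for Tshb and 0.47 for Nmu, where Chow 4 was 1.38 above Chow 5 for Cga, 0.95 for Tshb and 0.63 for Nmu. The joint pattern was known when the genes were chosen, so no p is given.

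**Figure D2:**
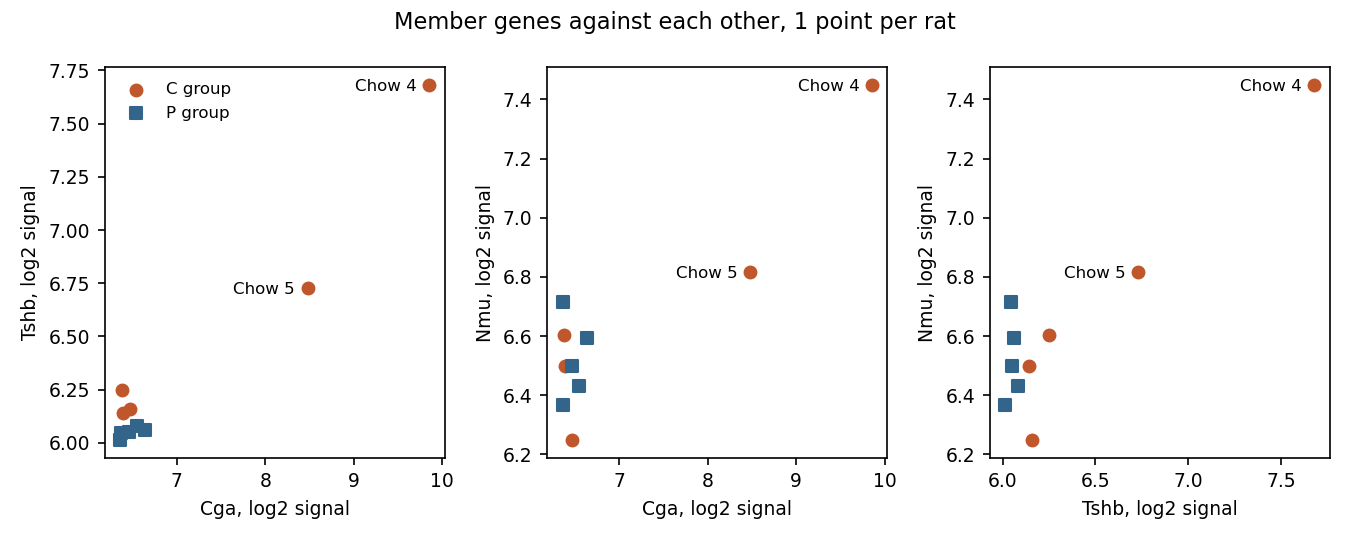
Log2 signal of each pair of the 3 genes, with 1 point per rat (circles, C group, and squares, P group). Chow 4 lies farthest to the upper right in every panel and Chow 5 next, while the other 8 rats of both diets form a cloud at the lower left, in which r was -0.18, -0.059 and -0.028.

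The rats that read highest were counted over the varying probe sets as a description. Of 1391 probe sets with an SD above 0.1 over the rats, 310 (22.3%) were highest in Chow 4, 381 (27.4%) in Chow 1 and 56 (4.03%) in Chow 5. Chow 4 was highest and Chow 5 next in 11 (0.791%), the 3 genes among them. Both rats exceeded every other rat by over 0.3 in 4 probe sets (0.288%), and these named Cga, Tshb, Dct and Fndc3c1. The last pair was noted after its values were seen.

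By likeness over the 10 rats, each gene's 10 most similar varying probe sets that name a single gene covered 13 genes besides the 3 themselves. Fndc3c1, a gene named for its fibronectin type III domains, was the most similar probe set to all 3, with r = 0.98 to Cga, 0.98 to Tshb and 0.92 to Nmu. It read 6.49 in Chow 1, 6.49 in Chow 2, 6.52 in Chow 3, 7.38 in Chow 4 and 6.96 in Chow 5. In the P group it read 6.45 in Powder 1, 6.39 in Powder 2, 6.54 in Powder 3, 6.52 in Powder 4 and 6.48 in Powder 5. Chow 4 and Chow 5 were thus the only rats above 6.54, and among the other 8 rats its r with Cga was -0.12. The C minus P difference of Fndc3c1 was 0.29 (SE 0.17, 5 rats per group).

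Dct, which encodes dopachrome tautomerase, an enzyme of melanin synthesis, had r = 0.85 to Cga, 0.82 to Tshb and 0.88 to Nmu. It read 7.90 in Chow 1, 7.70 in Chow 2, 8.14 in Chow 3, 8.94 in Chow 4 and 8.67 in Chow 5. In the P group it read 8.15 in Powder 1, 7.74 in Powder 2, 7.76 in Powder 3, 8.33 in Powder 4 and 7.76 in Powder 5. Chow 4 and Chow 5 were again the highest rats, and the other 8 rats spread over more than for Fndc3c1. In those 8 rats Dct had an r of 0.65 with Nmu and -0.49 with Cga.

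Of the other genes, Tnfsf13, a ligand of the tumor necrosis factor family, and LOC100911253 were, with Fndc3c1 and Dct, in the lists of all 3. Tnfsf13 read 7.94 in Chow 4 and 7.68 in Chow 1, with 4 of 5 C rats above every P rat. LOC100911253 was high in Chow 4 alone, at 7.74 against 6.86 to 7.04 in the other rats, Chow 5 included. For Cga the list went on with H1f2, a linker histone gene, Stra6, which encodes a retinol transporter, Mt2A, a metallothionein gene, and Scn7a, a sodium channel gene (r = 0.72 to 0.73). Scn7a is also on the tanycyte list, and its highest rats were Chow 4, at 8.80, and Chow 5, at 8.47. The other varying genes of that list did not share this order. Crym was highest in Chow 1, at 9.71, and read 9.09 in Chow 4, beside a P mean of 9.18. Vim was highest in Chow 1, at 10.64, and next in Chow 4, at 10.54. Col25a1 was highest in Chow 5, at 10.27, and Frzb in Chow 4, at 8.01, then Chow 1, at 7.90. Stra6 and Mt2A were higher in Chow 5, at 7.60 and 9.07, than in Chow 4, at 7.52 and 8.77. For Tshb the list of most similar genes held Mgp, the matrix Gla protein gene (r = 0.78), and Ifi27, an interferon-induced gene (r = 0.71), both at their highest in Chow 4. H1f2 (r = 0.74) and Gsta1, a glutathione transferase gene (r = 0.73), were also on the Tshb list. For Nmu the list held Gsta1 (r = 0.90), Tbx3, a transcription factor gene (r = 0.85), Mx1, an interferon-induced gene (r = 0.83), and Ifi27 (r = 0.79). Gsta1, Tbx3 and Mx1 had an r with Nmu of 0.80, 0.77 and 0.85 among the 8 rats without Chow 4 and Chow 5. The next gene below each list was Gsta1 for Cga (r = 0.69), Frzb, also of the tanycyte list, for Tshb (r = 0.71) and C1r for Nmu (r = 0.78). Of the 13 probe sets, 11 were highest in Chow 4, 5 were highest in Chow 4 and next in Chow 5, 7 were called higher by rank products, beside 0.941% of all probe sets, and 0 had groups that did not overlap, beside 0.151% of all probe sets with every C rat above every P rat. Selection by likeness to genes that are high in 2 C rats, and from varying probe sets only, favors such counts. The probe sets share these 10 arrays, and genes are not independent replicates.

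**Figure D3:**
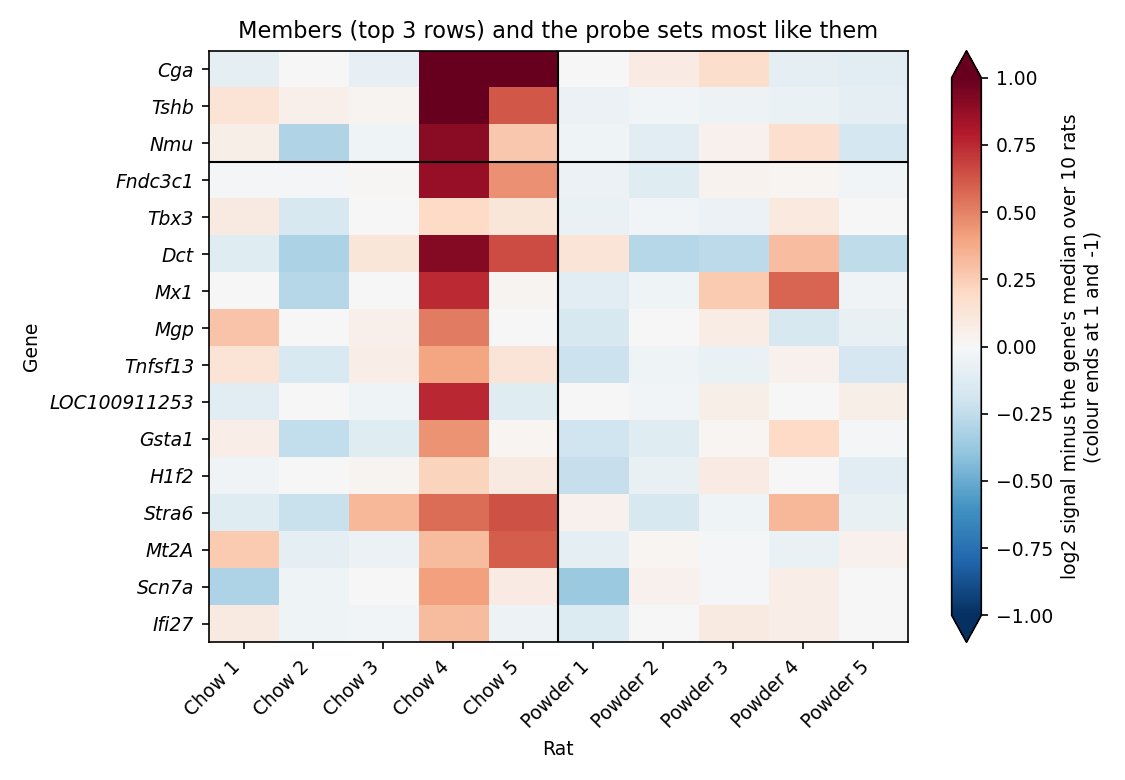
Log2 signal of Cga, Tshb, Nmu and the 13 genes most like them (rows) in each rat (columns, C group left of the P group), as the distance from the gene's median over the 10 rats. The colour scale ends at 1 and -1, which Cga in Chow 4 (9.85) and Chow 5 (8.48) and Tshb in Chow 4 (7.68) exceed, and Fndc3c1 and Dct repeat the 2 dark columns.

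Other genes of the pituitary did not vary with Cga and Tshb. Of 28 genes on lists of the anterior pituitary, of other pars tuberalis genes and of glycoprotein hormones and their receptors, 19 were measured, by 28 probe sets, and 0 of these had an SD above 0.001 over the rats. The summarization used by the authors flattens a probe set whose probes share no varying signal, and did so for 28736 of 31042 probe sets (92.6%), so a flat value does not show that a gene was absent. Among anterior pituitary genes 11 of 13 were measured and 0 were called in either direction. They include the hormone genes Gh1 (growth hormone, 6.54 in every rat), Prl (prolactin, 6.21), Lhb (the luteinizing hormone subunit, 7.54) and Fshb (the follicle-stimulating hormone subunit, 6.81), and Pou1f1, the transcription factor of the cells that make growth hormone, prolactin and thyrotropin (6.175 in both groups). The mean level of the 11 genes was 6.78 in every rat of both groups. In Chow 4, the rat with the highest Cga, the largest distance of any of the 28 probe sets from the P mean was 0.00047, and in Chow 5 it was 0.00099.

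The label of the 3 genes as pars tuberalis genes could not be checked against other markers of that tissue. Of 10 such genes, 5 had no probe set naming them alone, among them the melatonin receptor gene Mtnr1a and the regulator Eya3. The other 5 were flat, at 6.61 for Pitx1, 9.70 for Tef, 9.76 for Chga, 10.56 for Cnr1 and 7.71 for Adora2b, and several of these are also expressed in neurons. The genes are therefore called by their names here.

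The receptors of these hormones were flat as well. Tshr, the thyrotropin receptor, and Dio2, the deiodinase that thyrotropin induces in tanycytes, read 6.69 and 6.36 in both groups. The receptors of neuromedin U, Nmur1 and Nmur2, read 7.19 and 6.20 in both groups. Over the 15 of 17 measured genes of the thyroid axis, rank products called 1 higher and 2 lower in the C group, limma called 0, and 9 were flat, beside 0.941% and 0.818% over all probe sets. A larger part of all probe sets was flat (92.6%), so these shares are not a like comparison. In a separate run on only the probe sets with an SD above 0.1, rank products called 0 list genes in either direction. Ttr, whose protein carries thyroxine and is made by the choroid plexus, was called higher, with a difference of 0.43 (SE 0.56). Trh, which encodes thyrotropin-releasing hormone, and Trhr, its receptor gene, were called lower, with differences of -0.09 (SE 0.08) and -0.08 (SE 0.06), each with 5 rats per group. Ttr, Trh and Trhr did not follow Cga over the rats. Ttr, at 7.54 in Chow 4 and 7.86 in Chow 5, was highest in Chow 3, at 9.50, and Trhr was lowest of all rats in Chow 4, at 8.56, but 8.86 in Chow 5. Trh read 9.24 in Chow 4 and 9.38 in Chow 5, inside the 9.16 to 9.52 of the P group. Thrsp, the remaining varying gene of the list, read 8.01 in Chow 4 but was lowest of all rats in Chow 5, at 7.37. The median difference of the 15 genes, like that of all probe sets, was within 0.001 of 0. With 9 of the 15 genes and most of all probe sets flat, both medians lie near 0 whatever the varying genes do. Nothing is read from them.

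Leptomeningeal genes, which mark the membranes around the brain and pituitary stalk, were high in Chow 4 but not in Chow 5. All 16 genes of the list were measured and varied. Their mean distance from the average of the arrays was 0.84 in Chow 1, -0.22 in Chow 2, -0.43 in Chow 3, 0.66 in Chow 4 and -0.22 in Chow 5. In the P group it was -0.69 in Powder 1, 0.26 in Powder 2, 0.42 in Powder 3, -0.43 in Powder 4 and -0.20 in Powder 5. Chow 1, the rat with the highest leptomeningeal genes, had a Cga of 6.38, and Chow 5, with a Cga of 8.48, was below the average in them. The mean level of the list was 8.18 to 9.45 in C rats and 7.92 to 9.02 in P rats. Rank products called 15 of the 16 genes higher and 0 lower, beside 0.941% and 0.818% of all probe sets. Most of all probe sets were flat, whereas the 16 genes all varied, so these shares are not a like comparison. In a separate run on only the probe sets with an SD above 0.1, rank products called 1 higher over the array and 0 among the genes of all lists. In the run on all probe sets, the 15 genes make up most of the 19 genes called higher over all lists. That count was 7 without Chow 1, 10 without Chow 4 and 11 without Powder 1. Mgp of this list was among the probe sets most like Tshb. The part of this tissue in the levels of Cga, Tshb and Nmu was not tested.

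**Figure D4:**
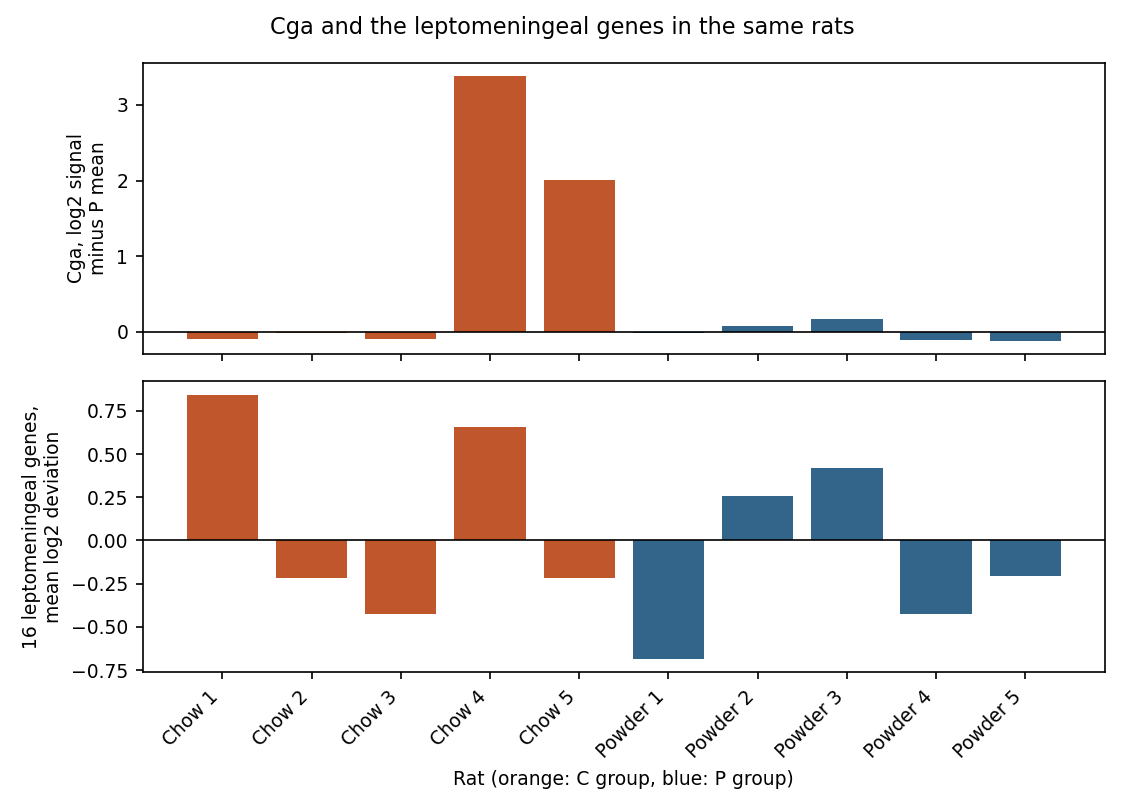
Cga as log2 signal minus the P mean (upper bars) and the mean log2 deviation of 16 leptomeningeal genes from their averages over the arrays (lower bars) in each rat, with the C group left of the P group. Cga is high in Chow 4 and Chow 5, whereas the leptomeningeal genes are highest in Chow 1 (0.84) and Chow 4 (0.66) and at -0.22 in Chow 5.

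Some genes on the lists of other cell types and regions also varied between rats. In the tanycyte list, 5 of 12 measured genes varied, their mean distance from the average was 0.16 in Chow 1, -0.16 in Chow 2, -0.05 in Chow 3, 0.15 in Chow 4 and 0.095 in Chow 5, and it was -0.12 to 0.017 in the P group. Of the 12 genes 0 were called, and the tanycyte genes Rax and Gpr50 were flat. In the list of the suprachiasmatic nucleus, where Nmu is also known in the rat, 3 of 7 measured genes varied, with a mean distance of 0.56 in Chow 1, -0.22 in Chow 2, 0.11 in Chow 3, -0.29 in Chow 4 and 0.31 in Chow 5, and -0.31 to 0.27 in the P group. Chow 4, the rat with the highest Nmu, was below the average in this mean and Chow 5 above it. Avp, 1 of the 3 genes, is also on the list of hypothalamic neurons. In the list of the arcuate and ventromedial nuclei, 3 of 8 measured genes varied, and the distances lay between -0.078 and 0.17 in C rats and between -0.054 and 0.0024 in the P group. Of the 13 measured clock genes 9 were flat, 0 were called higher and 1 was called lower. Of the 7 endothelial genes 6 were flat and 0 had an SD above 0.1, which leaves their mean level little room to differ, at 8.77 to 8.78 in C rats and 8.76 to 8.78 in P rats. Rank products called 1 of 9 measured choroid plexus genes higher, 1 of 9 peptide processing genes lower and 6 of 9 peptide genes of hypothalamic neurons lower, with no call in the opposite direction. Of the suprachiasmatic genes 2 were called higher and 1 lower, and of the arcuate and ventromedial genes 1 each way. Over all probe sets, most of them flat, 0.941% were called higher and 0.818% lower. None of these lists was tested as a set, and limma called 0 genes of any of them.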

How the data were processed

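Hypothalamic RNA of 10 rats was hybridized to 1 array each. The authors normalized and summarized the scans in R by factor analysis, and deposited log2 values, which lie between 5.23 and 13.96. They were used as deposited, without 57 hybridization controls. Columns were joined to rats by sample identifier, with 0 columns of no sample. Gene names came from the annotation of the array, in which 20826 probe sets name a single gene, 436 several and 9780 none. Arrays have no read depth, and 5 rats per group limit the precision. The rats were taken as separate animals.

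Rank products (Python 3.11.15, numpy 2.4.6, pandas 2.3.3) ranked the fold changes of 25 C to P pairings of rats, with 100 permutations and an FDR below 0.05. The diet was also fitted with limma 3.58.1 (R 4.3.3) over 31042 probe sets, with Benjamini-Hochberg adjustment. Both were checked on simulated arrays in which every probe set had the same noise. Most probe sets of the real table are flat, so this check does not cover the FDR in these data. Differences are C minus P, and 2 to their power gives the fold.

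In lists the probe set of highest mean stood for a gene, and 115 of 134 genes in 14 lists were matched. Named were the 3 genes, for each the 10 varying probe sets (SD above 0.1) of highest Pearson r, varying genes of the lists and defining genes that were flat (SD below 0.001). The 3 genes and the lists were chosen with earlier results of these data known. Alternatives were quantile normalization, median centring, filters on mean or SD, leaving out rats, a replicate block, medians, an FDR below 0.01, trended and robust variances and another probe set per gene. Figures were drawn with matplotlib 3.10.9.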

Additional observations from a re-analysis of the deposited data

Results flagged for a closer look

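A check for outlying rats covered Cga, Tshb, Nmu, the 13 genes most like them, the varying thyroid axis genes and the leptomeningeal mean. It examined 42 groups of 5 rats. In 2 of them a rat's gap to its nearest neighbor exceeded 0.71 of the group's whole range. That limit is set for about 1 in 20 by chance. The rate does not hold here, because many of these genes were picked by their values in these rats. LOC100911253 read 7.74 in Chow 4, with a gap of 0.852 of the range of the C group. Scn7a read 8.02 in Powder 1, with a gap of 0.808 of the range of the P group. Cga, Tshb and Nmu themselves did not exceed this limit in the C group, where Chow 5 stood between Chow 4 and the remaining rats.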

How the results depend on the processing

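Cga, Tshb and Nmu kept the direction of their differences, and the 3 correlations their sign, with quantile normalization, median centring and each single rat left out, but not all without Chow 4 and Chow 5. With 1 rat left out, the difference was 0.45 to 1.32 for Cga, 0.27 to 0.65 for Tshb and 0.021 to 0.32 for Nmu, and r was 0.93 to 0.99 for Cga with Tshb, 0.61 to 0.93 for Cga with Nmu and 0.58 to 0.95 for Tshb with Nmu. Without Chow 4 and Chow 5, the difference was -0.065 for Cga and -0.071 for Nmu, and r was -0.18, -0.059 and -0.028. Without Chow 1 and Chow 4, r was 0.65 for Cga with Nmu and 0.57 for Tshb with Nmu, the Nmu difference was 0.00072, and Nmu was not called (FDR 0.742). Run on only the probe sets with an SD above 0.1, rank products called 0 of the 3 genes (FDR 0.105 for Cga, 0.351 for Tshb and 1.09 for Nmu). None of them passed the filter on mean level, which keeps probe sets above the median of all.

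Rank products made 119 to 355 higher and 119 to 327 lower calls with 1 rat left out, against 292 and 254 with all rats. Higher calls fell to 119 without Chow 1, 158 without Chow 4 and 175 without Powder 1, and lower calls to 137, 128, 157 and 119 without Powder 1, Powder 2, Powder 4 and Powder 5. Higher calls numbered 49 without Chow 1 and Chow 4 and 26 without Chow 4 and Chow 5. Higher and lower calls were 125 and 97 above the median level, 1 and 4 above an SD of 0.1, and 93 and 99 at an FDR below 0.01. Of the list genes, 19 were called higher and 10 lower, and 7 to 21 and 4 to 11 with 1 rat left out, the higher calls falling to 7, 10 and 11 without Chow 1, Chow 4 and Powder 1 and the lower ones to 4, 5, 6 and 4 without Powder 1, Powder 2, Powder 3 and Powder 5. Higher calls among them were 2 without Chow 1 and Chow 4, 2 without Chow 4 and Chow 5, 0 above an SD of 0.1 and 12 at an FDR below 0.01. Lower calls among them were 6 above the median level, 0 above an SD of 0.1 and 4 at an FDR below 0.01. Limma called 0 to 1 probe sets with 1 rat left out and 0 otherwise. The causes were not tested.

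The replicate numbers are shared between the groups, but no source says that they pair rats. The deviations of same-numbered rats correlated at -0.33 to 0.28, and 0 of 5 C rats correlated best with the P rat of their own number. With a replicate block, rank products made 207 higher and 325 lower calls and called 17 list genes lower, limma called 0, and Cga, Tshb and Nmu stayed called with differences of 1.04, 0.54 and 0.20. A mean over several probe sets was not run, since each of the 3 genes has 1.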
